A study of Mus musculus with 4 samples.

Results

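The genes described are 10 genes of NF-κB feedback, immune checkpoint and cytokine response, named one by one as *Tnfaip3*, *Nfkbia*, *Irf1*, *Socs1*, *Socs3*, *Cd274*, *Nos2*, *Il15*, *C3* and *Il1r1*. They were looked up among 30176 genes measured in pancreatic β-cells of female NOD mice, a strain that develops autoimmune type 1 diabetes. Of the 10, 9 had a feature (a set of array probes) with that gene as its 1 symbol, and *C3* was not analysed here. The 4 groups were *Tyk2*-/- (knockout) and *Tyk2*+/+ (wild type) mice at 11 weeks of age (11w), and the same genotypes at 6 weeks (6w), with 1 Affymetrix Clariom D mouse array of normalized signal intensities for each. The *Tyk2* knockout allele, carried in all cells of the animal, came from outside the strain, by way of C57BL/6J, and had been crossed back onto NOD/shiJcl, and a tested marker on chromosome 9, which carries *Tyk2*, was not of NOD origin. The sort took FluoZin-3-AM+ (zinc-rich), TMRE+ (with mitochondrial membrane potential), CD45- and propidium iodide- cells, and each array held RNA of cells pooled from several mice. No array had a replicate, so no comparison has a test or a p-value, and the precision of each value is limited by the number of arrays.

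NF-κB is a family of transcription factors that is held in the cytoplasm by IκB proteins until tumor necrosis factor (TNF) or interleukin-1 (IL-1) activates the IκB kinase. NF-κB then induces its own inhibitors, among them IκBα (*Nfkbia*) and the ubiquitin-editing enzyme A20 (*Tnfaip3*), which close a feedback loop. Interferon-γ (IFN-γ) acts through Janus kinases to induce *Irf1*, *Socs1* and *Cd274*, and rodent β-cells exposed to these cytokines in culture make nitric oxide through *Nos2*. TYK2 is a Janus kinase that acts together with other Janus kinases at receptors that include those for type I IFN, IL-12 and IL-23.

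Promoter letters of 5 of the genes are given first, to show where motifs of the NF-κB and IFN pathways lie at these genes. RefSeq promoter windows (GRCm38.p6, 250 bases before to 50 after a start) were matched for 8 of the 10 genes, with 11 windows in all, and *Nos2* and *Il15* were without a window. The stretches below are written 5′ to 3′ on the strand of the gene, and capitals mark a motif match. They are *Tnfaip3* at chr10:19015411-19015540 (minus strand), *Nfkbia* at chr12:55492648-55492747 (minus), *Irf1* at chr11:53769894-53770013 (plus), *Socs1* at chr16:10785597-10785626 (minus) and *Socs3* at chr11:117969502-117969531 (minus).
Tnfaip3: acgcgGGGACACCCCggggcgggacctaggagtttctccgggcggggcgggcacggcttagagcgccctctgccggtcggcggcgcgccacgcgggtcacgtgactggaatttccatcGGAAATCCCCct
Nfkbia: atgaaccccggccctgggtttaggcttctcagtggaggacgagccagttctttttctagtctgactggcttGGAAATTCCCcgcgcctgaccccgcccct
Irf1: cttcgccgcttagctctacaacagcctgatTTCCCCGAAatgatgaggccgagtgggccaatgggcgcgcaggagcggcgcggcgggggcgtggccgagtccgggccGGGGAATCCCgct
Socs1: cttgccgGAAAGAGAAACCGAAAgcggggg
Socs3: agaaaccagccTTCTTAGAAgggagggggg

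The capitals in *Tnfaip3* and *Nfkbia* match the κB motif, at −125 and −12 bases from the start of *Tnfaip3* and at −29 from that of *Nfkbia*. The κB motif was GGGRNNYYCC on either strand, with R for A or G, Y for C or T and N for any letter. In *Irf1* they match first the GAS motif (TTCNNNGAA), a motif of IFN-γ response genes, at −90 and then the κB motif at −13. *Socs3* holds a GAS match at −154, and *Socs1* holds 2 overlapping matches to the core of the interferon-stimulated response element, ISRE (GAAA, any 2 letters, GAAA), at −83 and −77. A further κB match stood at −232 in 1 of the windows of *Il1r1*, and the windows of *Cd274* and *C3* held no match to the 3 motifs. *Tnfaip3* and *Irf1* each had another window, at a different start, which held no match either. Both strands were searched. Of 32851 mouse windows of 300 bases, 8.46% held a κB match, 8.30% a GAS match and 3.44% an ISRE core match. A match is a description of letters and not a measured binding site.

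Most of the 9 genes gave dim signals. *Socs1*, *Socs3*, *Nos2* and *Il15* (4 of 9) lay below the median of all features on all 4 arrays, and *Nfkbia* and *Il1r1* (2 of 9) lay above it on all 4. The array medians were 17.5, 17.3, 16.2 and 15.7 on 11w *Tyk2*-/-, then 11w *Tyk2*+/+, then 6w *Tyk2*-/-, then 6w *Tyk2*+/+ arrays, and 4 signals in a row are given in this order throughout. The highest signal of a gene was 1.07-fold (*Nos2*) to 2.38-fold (*Nfkbia*) its lowest. Signals of different genes come from different probes and are not set against each other.

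**Figure D1:**
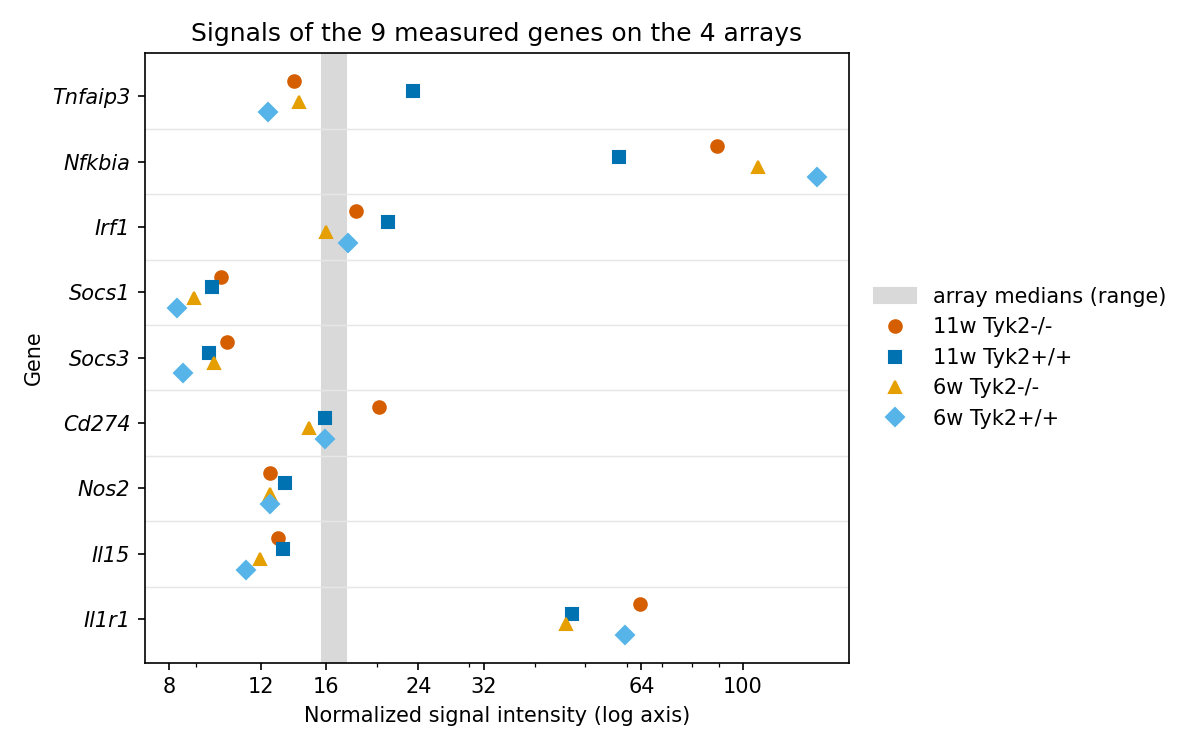
Normalized signal (log axis) of the 9 measured genes, with 1 symbol per array and the range of the 4 array medians in grey. *Tnfaip3* stands above the grey band on the 11w *Tyk2*+/+ array alone (23.4) and below it on the others (12.4 to 14.2), and *Nfkbia* and *Il1r1* lie above the band on all 4 arrays.

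Differences are given on the log2 scale and were called by a Z score and a ratio. To obtain the Z score, each log2 difference was divided by its local SD, which is the SD of the log2 differences over the 1.52% of features of most similar mean signal. A gene was called higher with a Z score above 2 and a ratio above 1.5, and lower with a Z score below −2 and a ratio below 0.66. Of the 36 values (9 genes in 4 comparisons), 2 were called, both for *Tnfaip3*, and 30 were within 1 local SD of 0. Over all genes, 77.6% to 82.7% lay within 1 local SD of 0, depending on the comparison.

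*Tnfaip3* was the 1 gene of the 9 to be called, both between the 11w genotypes and with age in wild type. Its product A20 removes activating ubiquitin chains in the TNF and IL-1 pathways and so ends NF-κB activity. Its signals were 13.9, 23.4, 14.2 and 12.4, so that the 11w *Tyk2*+/+ array was high and the other 3 arrays lay close together. At 11w it was lower in *Tyk2*-/- β-cells than in *Tyk2*+/+ ones, with a log2 difference of −0.76 (local SD 0.32, Z score −2.36, ratio 0.592), while between the 6w genotypes the difference was 0.19 (local SD 0.22). In *Tyk2*-/- β-cells the difference with age (11w minus 6w) was −0.03 (local SD 0.26). In *Tyk2*+/+ β-cells it rose with age, with a log2 difference of 0.92 (local SD 0.32, Z score 2.90, ratio 1.89). Both calls use the single 11w *Tyk2*+/+ array and are therefore not independent of each other. The difference with age in *Tyk2*-/- minus that in *Tyk2*+/+ β-cells was −0.95, which 4 arrays cannot test. Both calls end when signals are first raised to the array median or by a pseudocount of 16, with 1 SD over all features, or with a limit of 2-fold alone.

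Between the 11w genotypes, 0 of the 9 genes were called higher and 1 lower in the knockout, against 1.51% and 1.35% of all 30176 genes. Between the 6w genotypes, 0 of 9 were called either way, against 1.26% of all genes higher and 1.09% lower. With age, 0 of 9 were called either way in *Tyk2*-/- β-cells, against 1.62% of all genes higher and 1.35% lower. In wild type, 1 of 9 was called higher with age and 0 lower, against 2.14% and 1.45% of all genes. The pair of calls of *Tnfaip3*, lower in the knockout at 11w and higher with age in wild type, was found for 154 genes, 0.51% of all. A single gene of 9 is too few to read as a share.

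**Figure D2:**
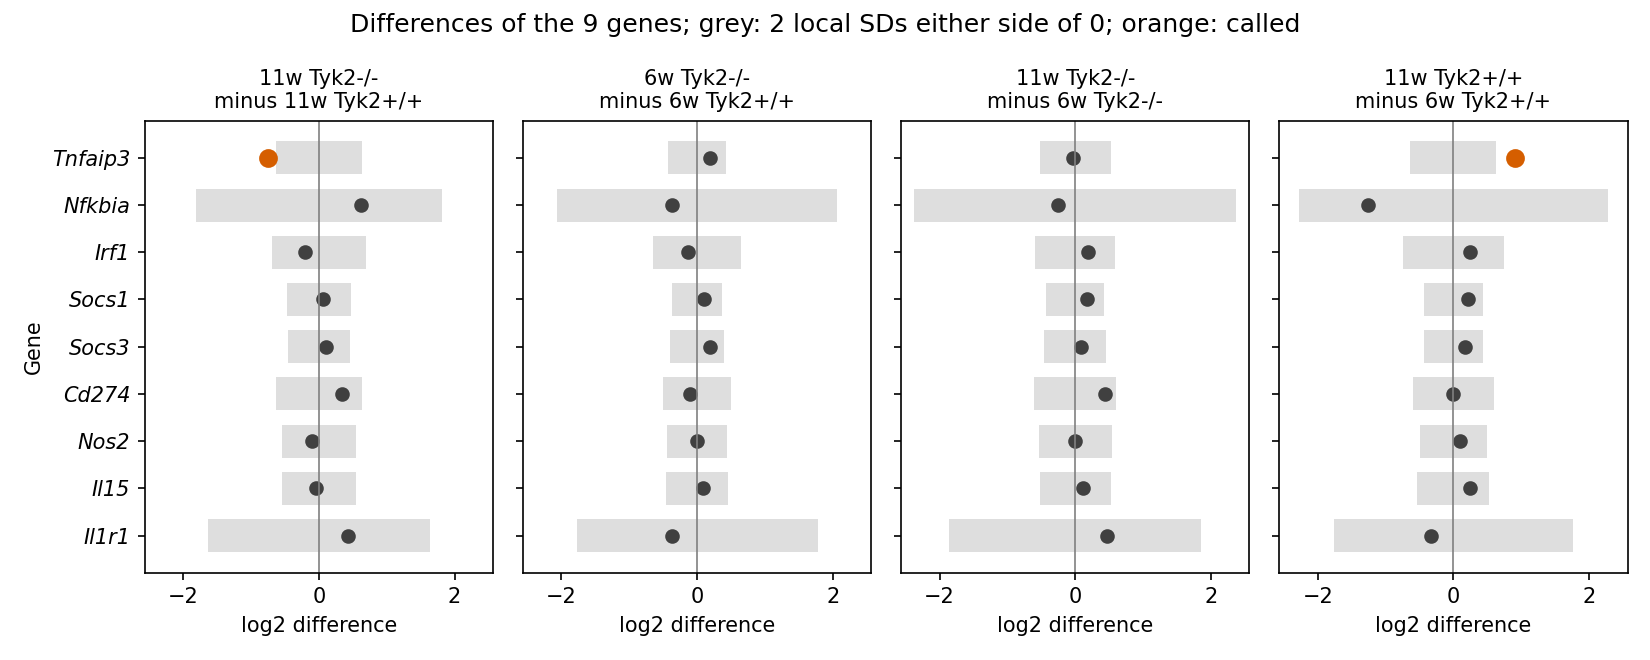
Log2 difference of each gene in the 4 comparisons (points), over a grey bar that runs 2 local SDs to either side of 0, with called values in orange. *Tnfaip3* passes its bar between the 11w genotypes (−0.76) and with age in *Tyk2*+/+ β-cells (0.92), and the bars of *Nfkbia* and *Il1r1* are the widest.

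*Nfkbia* was not called in the 4 comparisons. Its product IκBα binds NF-κB and returns it to the cytoplasm. The signals were 89.4, 58.1, 107 and 138, lowest on the array where *Tnfaip3* was highest, and the 11w arrays lay below the 6w arrays. Between the genotypes its log2 difference was 0.62 at 11w (local SD 0.91) and −0.37 at 6w (local SD 1.03). The difference with age was −0.26 in *Tyk2*-/- β-cells (local SD 1.19). In *Tyk2*+/+ β-cells it was −1.25, the widest of the 36 values, with a ratio of 0.420, but the local SD at this signal was 1.14, which gave a Z score of −1.10. With 1 SD over all features, or with a limit of 2-fold alone, *Nfkbia* would be called lower with age in *Tyk2*+/+ β-cells in place of *Tnfaip3*. The order of both 11w arrays below both 6w arrays was found for 1 of the 9 genes, against 15.7% of all genes. After centring it was found for 2 of the 9 (*Nfkbia* and *Nos2*) and for 31.3% of all genes.

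*Irf1*, a transcription factor that relays IFN signals, was not called. It gave 18.2, 20.9, 16 and 17.6, with log2 differences with age of 0.19 in *Tyk2*-/- (local SD 0.29) and 0.25 in *Tyk2*+/+ β-cells (local SD 0.37). Between genotypes its log2 difference was −0.20 at 11w and −0.14 at 6w. *Irf1* had a second, dimmer feature with signals of 12.7, 14.5, 9.55 and 8.92. On that feature the difference with age was 0.41 in *Tyk2*-/- β-cells (Z score 1.69). In *Tyk2*+/+ β-cells it was 0.70 (local SD 0.25, Z score 2.82, ratio 1.62), which meets the limits for a call, while the brighter feature that stands for the gene did not meet them, so that the 2 features disagree.

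*Socs1* encodes a suppressor of Janus kinases that IFN-γ induces, and gave 10.1, 9.65, 8.93 and 8.28. Its log2 differences lay between 0.06 (11w genotypes) and 0.22 (age in *Tyk2*+/+, local SD 0.22). *Socs3*, which restrains signaling of the IL-6 receptor family, gave 10.3, 9.55, 9.75 and 8.51, with log2 differences between 0.08 (age in *Tyk2*-/-) and 0.20 (6w genotypes). Both genes were highest on the 11w *Tyk2*-/- array and lowest on the 6w *Tyk2*+/+ array, with 1.22-fold and 1.21-fold between these arrays. All 4 signals of each gene lay below the array medians, where a weak signal and none are hard to tell apart.

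*Cd274* encodes PD-L1, the ligand through which tissue cells restrain T cells that carry PD-1. Its signals were 20.2, 15.9, 14.8 and 15.9, with the 11w *Tyk2*-/- array above the other 3. The log2 difference between the 11w genotypes was 0.34 (local SD 0.31, Z score 1.09, ratio 1.27), and that with age in *Tyk2*-/- β-cells was 0.44 (local SD 0.30, Z score 1.46, ratio 1.36). Neither was called. In *Tyk2*+/+ β-cells the difference with age was 0.00, and between the 6w genotypes it was −0.10.

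*Nos2*, the inducible nitric oxide synthase, and *Il15*, a cytokine that sustains CD8 T cells and NK cells, were dim on all arrays. *Nos2* gave 12.5, 13.3, 12.5 and 12.5, and its signals on both 6w arrays were equal to the last digit, as were those of 528 features. Its widest log2 difference was −0.10, between the 11w genotypes (local SD 0.28). *Il15* gave 12.9, 13.2, 11.96 and 11.2, with a log2 difference with age of 0.11 in *Tyk2*-/- and 0.24 in *Tyk2*+/+ β-cells (local SD 0.26 in both). Its differences between genotypes were −0.04 at 11w and 0.09 at 6w.

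*Il1r1* encodes the signaling receptor of IL-1 and gave 63.6, 47.3, 46.0 and 59.6. Its order turned with age, with the 11w *Tyk2*-/- array above 11w *Tyk2*+/+ (log2 difference 0.43) and the 6w *Tyk2*-/- array below 6w *Tyk2*+/+ (−0.37). Its difference with age was 0.47 in the knockout and −0.33 in wild type. None was called, with Z scores of 0.52, −0.42, 0.51 and −0.38 in the order of these values.

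Both 11w arrays lay above both 6w arrays for *Irf1*, *Socs1*, *Cd274* and *Il15*, 4 of 9 genes, against 32.3% of all genes. For *Cd274* the gap between the nearest arrays was under the third digit (15.9 on both *Tyk2*+/+ arrays). Over all genes, signals at 11w tended to be above those at 6w, and after the arrays were centred on their medians this order held for 2 of the 9 genes (*Socs1* and *Il15*) and for 13.3% of all genes. The median log2 difference of the 9 genes with age was 0.11 in *Tyk2*-/- β-cells (0.05 over all genes) and 0.17 in *Tyk2*+/+ β-cells (0.07 over all genes). Centring moves all differences with age by −0.11 in the knockout and by −0.15 in wild type, which turns *Socs3* in *Tyk2*-/- and *Nos2* and *Cd274* in *Tyk2*+/+ β-cells negative. Between genotypes the median of the 9 genes was 0.06 at 11w (0.01 over all genes) and 0 at 6w (0.03 over all genes).

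Inflammatory ligands were read from a list of 12 genes, and these data give no order of action between them and *Tnfaip3*. *Il6*, encoding interleukin-6, had the same calls as *Tnfaip3*, with signals of 12.3, 19.3, 11.1 and 12.2. At 11w it was lower in *Tyk2*-/- β-cells than in *Tyk2*+/+ ones (log2 difference −0.65, Z score −2.24, ratio 0.635), and it rose with age in *Tyk2*+/+ β-cells (0.66, Z score 2.34). *Il33*, encoding the IL-1 family alarmin IL-33, rose with age in *Tyk2*+/+ β-cells (0.84, Z score 3.16, signals of 14.0, 19.2, 13.2 and 10.7). Both *Il6* and *Il33* lay above the array median on the 11w *Tyk2*+/+ array alone (median 17.3). Their calls use the same single array as those of *Tnfaip3* and are not independent of them. The alternatives in processing were not run for the ligands. *Tnf* (14.6, 21.0, 13.3 and 14.6) and *Ifng* (11.0, 14.3, 9.33 and 11.0), both chosen after their values were seen, were also highest on the 11w *Tyk2*+/+ array but were not called, with Z scores of 1.59 and 1.41 for age in *Tyk2*+/+ β-cells. The 11w *Tyk2*+/+ array was the highest of the 4 for 6 of the 12 ligands and for 29.8% of all genes, and after centring for 5 of the 12 and for 20.6% of all genes. *Il1rn*, which encodes the IL-1 receptor antagonist and was also chosen after its values were seen, had its lowest signal there (34.2, 20.0, 25.0 and 25.0), with a log2 difference of 0.77 between the 11w genotypes (Z score 1.72), and was not called. *Il18*, which encodes IL-18, was lower in 6w *Tyk2*-/- than in 6w *Tyk2*+/+ β-cells (−0.75, Z score −2.83, signals of 12.4, 13.5, 12.7 and 21.4). Between the 11w genotypes the log2 difference of *Il18* was −0.12 (Z score −0.41), and the single 6w *Tyk2*+/+ array stood above the other arrays. *Il18* lies on chromosome 9, as *Tyk2* does, where a tested marker was not of NOD origin. Loss of *Tyk2*, a stretch of chromosome that came with the allele and variation of a single array cannot be told apart for *Il18* in these groups.

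**Figure D3:**
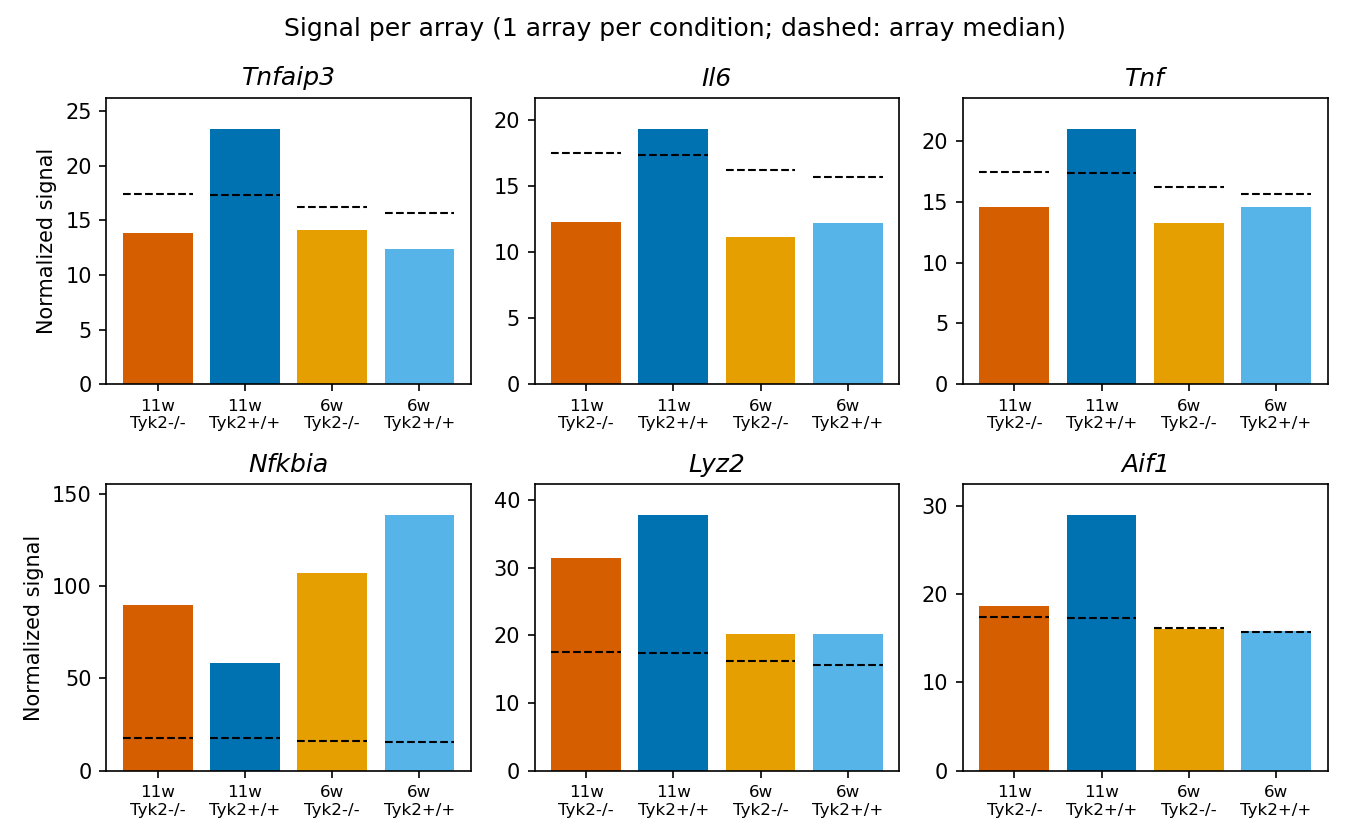
Normalized signal of *Tnfaip3*, *Il6*, *Tnf*, *Nfkbia*, *Lyz2* and *Aif1* on each array (bars, 1 array per condition), with the array median as a dashed line. *Tnfaip3*, *Il6*, *Tnf* and the macrophage markers *Lyz2* and *Aif1* share the 11w *Tyk2*+/+ array as their highest, and *Nfkbia* is lowest there.

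Markers of macrophages and dendritic cells had their highest sum on the same array as *Tnfaip3* and *Il6*. The summed signal of the 6 measured of 7 such markers was 109, 130, 92.7 and 89.2, with 4, 4, 5 and 4 of them below the array median. Among them *Lyz2* gave 31.5, 37.8, 20.2 and 20.2, and *Aif1* gave 18.6, 29.0, 16.01 and 15.8 and was called higher with age in *Tyk2*+/+ β-cells (0.87). The 5 general leukocyte markers summed to 84.3, 86.2, 76.9 and 73.9, with *Ptprc*, which encodes CD45, at 15.9, 15.2, 13.4 and 12.8. All 5 T and NK cell markers lay below the median on all arrays, with sums of 72.4, 68.1, 68.2 and 64.9. B cell markers summed to 52.7, 54.3, 51.5 and 50.8, highest on the 11w *Tyk2*+/+ array as well. Sums of acinar (165, 144, 133 and 159) and duct markers (65.1, 59.7, 65.2 and 60.7) were highest on other arrays. So were those of endothelial (66.9, 65.9, 55.3 and 57.3) and fibroblast markers (14360, 12472, 8473 and 15379). The fibroblast sum was almost all *Dcn* (14256.5, 12359.7, 8375.2 and 15275.1) and so says little of the other markers of that list. Of these, *Col1a1* and *Col3a1* were highest on the 6w *Tyk2*+/+ array and *Col1a2* on the 11w *Tyk2*-/- array. The fibroblast marker *Pdgfrb*, chosen after its values were seen, gave 17.2, 26.2, 15.97 and 16.9, highest on the 11w *Tyk2*+/+ array. The part of other cells in the values of *Tnfaip3* and the ligands was not tested. In RNA of many cells, fewer cells of a type and less RNA per cell cannot be told apart.

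The β-cell label was read against 7 measured of 8 markers. *Ins2* gave 98683, 93930, 97214 and 101685 and *Slc30a8*, the zinc transporter of insulin granules, gave 14051, 11358, 21284 and 22700, while *Pdx1* (16.1, 17.5, 14.8 and 15.7) and *Mafa* (18.8, 12.4, 12.9 and 14.1) lay near the array medians. *Ucn3*, a marker of mature β-cells, gave 34.9, 22.4, 22.0 and 1067, the glucose transporter gene *Slc2a2* gave 33.6, 21.7, 34.5 and 79.1, and *Nkx6-1* gave 30.9, 32.5, 33.0 and 59.6. All 3 were highest on the 6w *Tyk2*+/+ array, on which *Nfkbia* was also highest. With age in *Tyk2*+/+ β-cells, the comparison in which *Tnfaip3* rose, 2 of the 7 markers were called lower (*Ucn3* and *Slc2a2*), against 1.45% of all genes. The median of the 7 was −0.87 (0.07 over all genes). Between the 11w genotypes 1 of the 7 was called higher, against 1.51% of all genes, with a median of 0.31 (0.01 over all genes). Between the 6w genotypes 1 of the 7 was called lower, against 1.09%, with a median of −0.13 (0.03 over all genes). With age in *Tyk2*-/- β-cells 0 were called. The part of these marker differences in the values of *Tnfaip3* and *Nfkbia* was not tested. The feature of *Tyk2* gave 17.1, 18.8, 16.8 and 15.5, and which exons it covers is not known here, so it does not check the genotypes.

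The rest of the pathway was read from 11 lists with 142 genes, of which 128 were measured and 119 were other than the 9 genes. Of the 119, 2 were called higher and 1 lower between the 11w genotypes (2.52%), 2 higher and 1 lower between the 6w genotypes (2.52%), 1 higher with age in *Tyk2*-/- β-cells (0.840%) and 2 higher with age in *Tyk2*+/+ β-cells (1.68%). Their median log2 differences were 0.03, 0.00, 0.08 and 0.05 in that order of comparisons. Over all genes, 2.86%, 2.36%, 2.96% and 3.59% were called in either direction in the same order. The share of the 119 was slightly above that of all genes between the 6w genotypes and below it in the other comparisons.

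Among the other inhibitors of NF-κB none was called. The 14 genes of NF-κB feedback, which include *Tnfaip3* and *Nfkbia*, had a median of 0.09 between the 11w genotypes and of 0.03 with age in *Tyk2*+/+ β-cells. *Tnip1*, which encodes a partner protein of A20 and was chosen after its values were seen, gave 25.9, 37.7, 30.9 and 27.8, highest on the 11w *Tyk2*+/+ array as *Tnfaip3* was, with log2 differences of −0.54 between the 11w genotypes (Z score −1.09) and 0.44 with age in *Tyk2*+/+ β-cells (Z score 0.66). The 4 measured of 5 NF-κB subunit genes had differences from −0.12 to 0.07 between the 11w genotypes.

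*Birc2* was the 1 gene of the IκB kinase list (16 of 20 measured) to be called. It encodes cIAP1, a ubiquitin ligase of the TNF receptor complex. Its signals were 212, 35.1, 167 and 25.5, so that both *Tyk2*-/- arrays were high, with log2 differences of 2.60 at 11w (Z score 2.49, ratio 6.05) and 2.71 at 6w (Z score 2.78, ratio 6.52). *Birc2* lies on chromosome 9, as *Tyk2* does, where the tested marker was not of NOD origin. Loss of *Tyk2* and the stretch of chromosome that came with the allele cannot be told apart in these groups.

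Of the 10 measured receptors of the TNF and IL-1 families, 1 was called between the 11w genotypes, 1 between the 6w genotypes and 1 with age in *Tyk2*-/- β-cells. With age in *Tyk2*+/+ β-cells 0 were called. Over all genes, 2.86%, 2.36%, 2.96% and 3.59% were called in either direction in these comparisons, in that order. *Sigirr*, an inhibitory member of the IL-1 receptor family, was higher in 11w *Tyk2*-/- than in 11w *Tyk2*+/+ β-cells (log2 difference 0.70) and rose with age in *Tyk2*-/- β-cells (0.63), with signals of 20.2, 12.4, 13.1 and 14.1. *Il1r2*, the decoy receptor of IL-1, was higher in 6w *Tyk2*-/- than in 6w *Tyk2*+/+ β-cells (1.35), with signals of 31.7, 31.7, 49.1 and 19.2. Between the 11w genotypes its log2 difference was 0.00. The signaling receptor *Il1r1* was not called in the 4 comparisons.

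None of the measured genes of the other lists was called in the 4 comparisons, namely 10 of IFN-γ signaling, 16 of the SOCS family and other inhibitors of JAK-STAT signaling, 18 checkpoint ligands and receptors, 9 nitric oxide and cytokine-induced enzymes, 14 complement components and regulators and 5 of the IL-15 system. Lists of this size hold few genes to call where 2.36% to 3.59% of all genes were called in either direction. The 14 complement genes had the highest medians with age of the 11 lists, 0.31 in *Tyk2*-/- and 0.26 in *Tyk2*+/+ β-cells, against 0.05 and 0.07 over all genes. The 5 genes that follow were chosen after their values were seen. *Cfb*, a serine protease of the alternative pathway, gave 48.9, 39.9, 26.6 and 24.9, and *C4b* gave 32.3, 37.1, 24.7 and 26.5. In both genes the 11w arrays lay above the 6w arrays. Beside *Cd274*, the ligand *Lgals9* gave 42.3, 37.8, 24.2 and 21.5, with both 11w arrays above the 6w arrays, and *Cd47*, which restrains phagocytes, gave 2079, 1137, 1085 and 1148, highest on the 11w *Tyk2*-/- array with a log2 difference of 0.87 between the 11w genotypes (local SD 0.90). The IL-15 receptor chain *Il15ra* gave 21.6, 17.6, 16.9 and 16.2.

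**Figure D4:**
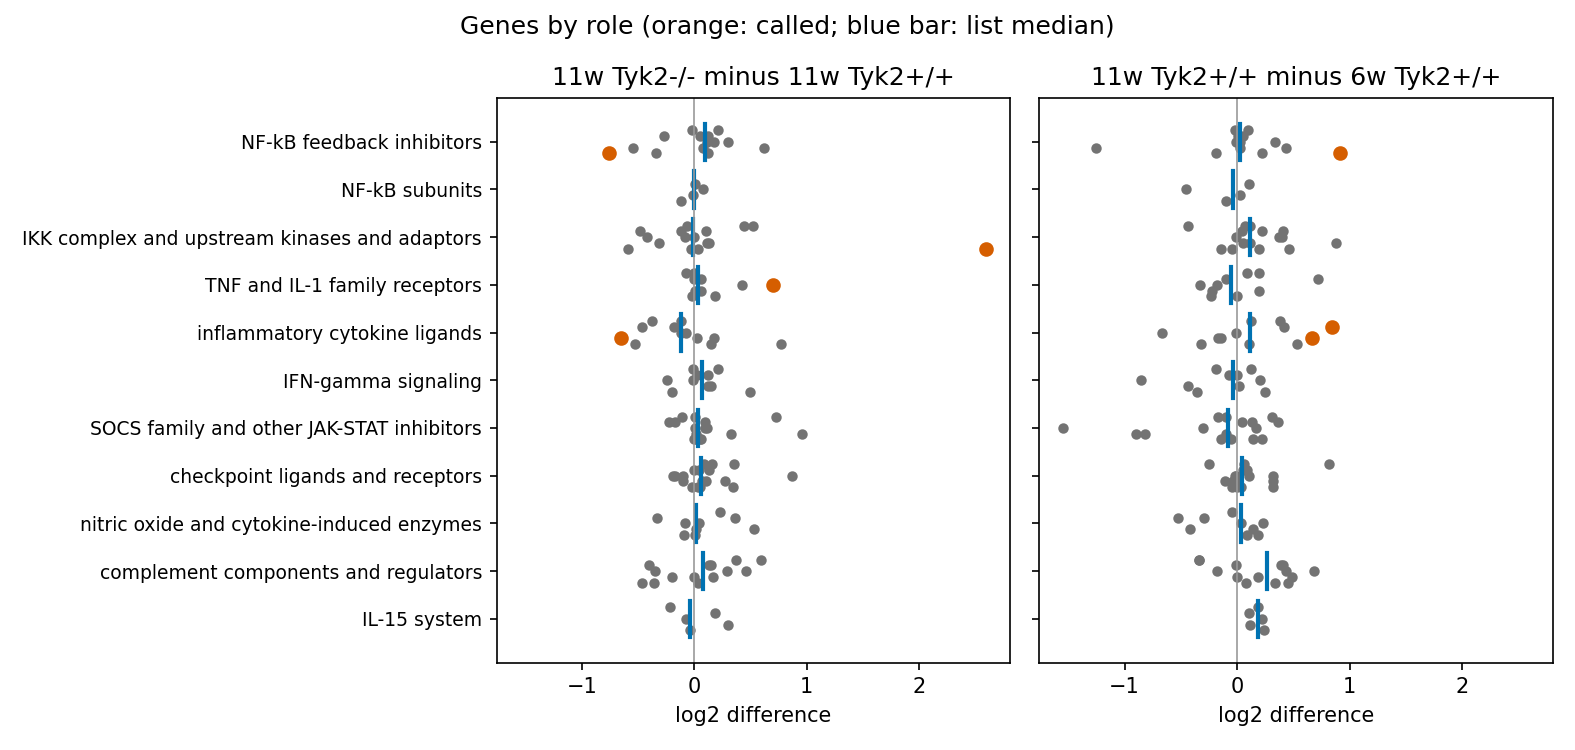
Log2 differences of the measured genes of the 11 lists between the 11w genotypes (left) and with age in *Tyk2*+/+ β-cells (right), with 1 point per gene, called genes in orange and the list median as a blue bar. The called genes on the left are *Tnfaip3* (−0.76), *Birc2* (2.60), *Sigirr* (0.70) and *Il6* (−0.65), and the complement list has the highest median on the right (0.26).

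The 5 genes nearest to *Tnfaip3* in pattern over the 4 arrays, among 10484 named genes at or above the median signal, were *Nup85*, *Zdhhc15*, *Prim2*, *Ppm1g* and *Rsad1*, at Euclidean distances of 0.0723, 0.0868, 0.126, 0.127 and 0.128 between centred log2 signals. *Nup85*, a gene of the nuclear pore, gave 29.96, 49.4, 29.1 and 25.1. With 4 arrays such likeness is a description of these arrays.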

How the data were processed

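RNA of sorted β-cells had been labelled with biotin (GeneChip WT Pico kit) and measured on 4 Affymetrix Clariom D mouse arrays. The authors deposited a table of normalized signal intensity on a linear scale for 65956 features. Affymetrix Expression Console is named in the submitters' processing notes, and the background correction, normalization and genome build are not given in the sources used here, so features have no coordinates. Of the features, 30638 had 1 gene symbol, 2176 several and 33142 none, and 22596 were matched to RefSeq by Entrez identifier. For 354 genes with more than 1 feature the brightest on average was taken, for 30176 genes in all.

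Signals were compared on the log2 scale in pandas 2.3.3 and NumPy 2.4.6 (Python 3.11.15), with SciPy 1.17.1, and plotted with matplotlib 3.10.9. The study's methods name the limits of the Z score and ratio, with the signs of the ratio limits printed the other way round, and do not say how the Z score was calculated, and here it used the local SD over 1.52% of features. Calling was tested on simulated data, with differences larger than those called for *Tnfaip3* and noise smaller than the local SD. That test does not show how reliable calls of the size reported for *Tnfaip3* are. The 10 genes and all lists were chosen with earlier results of these data known. Named genes are the 10, up to 4 called genes of each list, the 5 genes nearest to a called one, and those said to be chosen after their values were seen. Cell markers are named to check the cells. Alternatives were a window of 301 features, 1 SD over all features, median centring, quantile normalization, a limit of 2-fold alone, signals raised to the array median, a pseudocount of 16, dim features left out, and the mean over the features of a gene.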

Additional observations from a re-analysis of the deposited data

How the results depend on the processing

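The count of called genes among the 9 was recomputed under 9 alternatives in 4 comparisons. Of these 36 counts, 30 stayed within 1.5 times the reported one. The 30 include the counts between the 6w genotypes and with age in *Tyk2*-/- β-cells. These were 0 as reported and under all 9 alternatives, and so had no call to lose. Between the 11w genotypes the count was 0 in place of 1 with 1 SD over all features, with a limit of 2-fold alone, with signals raised to the array median and with a pseudocount of 16. With age in *Tyk2*+/+ β-cells it was 0 in place of 1 with raised signals and with the pseudocount, which shrink differences of dim genes by construction, and it stayed 1 with 1 SD or 2-fold alone, where the called gene was *Nfkbia* (−1.25) and not *Tnfaip3*. The log2 difference of *Tnfaip3* lay between −0.78 and −0.40 for the 11w genotypes and between 0.47 and 0.92 for age in *Tyk2*+/+ β-cells, over all 9 alternatives. No called difference changed sign, but most alternatives could not have changed it. A smaller window, 1 SD and 2-fold alone leave log2 differences as they are. So do leaving out dim features and the mean over features, as *Tnfaip3* has 1 feature. Raised signals and the pseudocount could not reverse the sign either. Only median centring and quantile normalization could have done so. *Tnfaip3* was kept with dim features left out, though it lay above the array median on the 11w *Tyk2*+/+ array alone. No replicate could be left out, and no paired analysis was possible because each condition has 1 array. Signals near the array median, as those of *Tnfaip3*, leave weak signal and background hard to separate.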
